A study of Mus musculus with 18 samples.

Results

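Adult mouse tendon cells that received supernatant from stimulated neonatal T cells were set against adult mouse tendon cells that received T cell media alone. The supernatant group was chosen by the labels and column names as libraries adult.7, adult.8 and adult.9, and the media group as adult.1, adult.2 and adult.3. These are 6 of the 18 libraries of the series, in 2 of its 6 groups of 3. Libraries 1 to 3 of a group are named below in that order. The series, from its title, asks how inflammation and factors secreted by T cells bear on the regenerative potential of neonatal tendon cells, and this comparison takes the neonatal factors to adult cells. A direct comparison with adult cells given supernatant from stimulated adult T cells, and an interaction with neonatal tendon cells given the same neonatal supernatant or media, use 9 more libraries.

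All cells were wild type (WT) fibroblasts, as the labels call them, and all libraries carry the same batch label. Cells from 4 digested adult tendons were pooled in 1 well (3 tendons for neonatal cells), passaged 2 times and frozen. Thawed cells (25K) were cultured for 3 days and then given 1 ml of complete medium mixed with 1 ml of supernatant or T cell media. Strain, age in weeks, sex, the way the T cells were stimulated, the cytokines in the supernatant and the length of treatment are unknown here. Nothing in the labels tells if libraries of the same group are separate animals or separate cultures, so p-values measure only the spread between these libraries, which may be technical.

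Tendon fibroblasts make a collagen-rich matrix and carry receptors for many T cell cytokines. Interferon-gamma acts through JAK kinases and STAT factors and induces GTPases, antigen-presentation genes and the inducible nitric oxide synthase. IL-4 and IL-13 act through STAT6 and induce the eosinophil attractant eotaxin in fibroblasts, and IL-17A raises neutrophil attractants and acute-phase genes, partly by stabilising their transcripts. Stimulated T cells can release all of these, and the files hold no measurement of the supernatants themselves.

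Values are CPM, the count of a gene scaled to the total of its library, taken from the deposited log2 CPM, and each fold change is the log2 difference of group means with its standard error (SE) from a limma fit to all libraries. A gene is called where its p, adjusted by Benjamini-Hochberg over all 14391 genes, is under 0.05. Estimated depth was 12.66 to 17.48 M reads in the 6 libraries, so that 3 reads correspond to 0.172 to 0.237 CPM (a limit of counting error only). The estimate is rough. At these totals 15.7 to 20.0% of low values fell on whole reads, against 8.75 to 11.2% at the next best total. The lowest value of the table is 0.1269 CPM. Because of that lowest value, fold changes understate the change of genes near it. CPM is not corrected for gene length, so levels are compared between libraries and not between genes. The 12 largest rises and 12 largest falls named by rule were taken only from genes whose 2 groups did not overlap. For these genes, among them Ccl11, Ccl8, C3, Il13ra2, Iigp1, Cilp, Aspn and Eln, the lack of overlap comes from that choice. Genes named for a small p are also favoured to lack overlap. The share of all genes without overlap is not given here.

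Library 3 of the supernatant group and library 2 of the media group stood apart in interferon-responsive genes. The mean level of the type I interferon-stimulated list was 4.10, 4.65 and 2.59 log2 CPM in supernatant libraries 1 to 3, and 1.96, 3.45 and 1.72 log2 CPM in media libraries 1 to 3. Correlations were taken over genes with at least 5 CPM in at least 3 of the 6 libraries, which leaves out genes of low level. Supernatant library 3 correlated with the media libraries at 0.9383 to 0.9434, and supernatant libraries 1 and 2 at 0.9156 to 0.9289. The counts of the 2 interferon lists against media are therefore given with and without these libraries, and single genes only in part. Among tendon cell markers, Scx, Mkx, Tnmd, Fmod, Thbs4, Col1a1, Col1a2, Pdgfra and Dcn were detected in all 6 libraries.

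Markers of other cells were low or mixed. The 6 T cell markers in the table summed to 10.4, 9.29 and 7.13 CPM with neonatal supernatant and to 5.16, 3.72 and 3.08 CPM in media, and Cd3e, Cd3g, Trac and Cd2 are not in it. Cd4 (1.99, 2.42 and 1.28 CPM against 0.686, 0.593 and 0.307 CPM) and Il2ra (4.15, 3.72 and 2.04 CPM against 0.891, 0.829 and 0.598 CPM) were the 2 T cell markers called. Summed levels were 94.3 to 123.2 against 106 to 133.2 CPM for 10 macrophage markers (3 called, all higher) and 52.9 to 59.95 against 63.2 to 66.8 CPM for 8 endothelial markers (2 called, both lower, and 1 without supernatant library 3). Mural cell markers (6 in the table) summed to 757 to 893 against 1218 to 1268 CPM, with 1 called higher and 4 lower, and none of 6 Schwann cell markers was called. The 2 keratinocyte markers in the table summed to 36.8 to 37.7 against 82.7 to 89.4 CPM, nearly all of it Perp. Of the 2 skeletal muscle markers (21.96 to 37.6 against 17.4 to 41.5 CPM), Ttn was called higher and Acta1 lower. The part of other cells in the results below was not tested, and in bulk RNA fewer cells of a type and less RNA per cell cannot be told apart.

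Neonatal T cell supernatant changed inflammatory, metabolic and matrix genes of adult tendon cells. Of the 14391 genes, 3929 were called (27.3%), 2321 of them higher (16.1%) and 1608 lower (11.2%). A change of at least 2-fold was called for 1300 genes higher (9.03%) and 326 lower (2.27%). The median log2 fold change over all genes was 0.03. The split depended on scaling and level: 59.1% of calls were higher here, 46.5% (1649 higher, 1900 lower) after quantile normalization and 52.2% (1702 higher, 1560 lower) when genes under 5 CPM in 3 libraries were left out.

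The excess of rises lay in genes of low level. Where the higher group averaged under 1 CPM, 154 of 771 genes rose and 3 fell, and at 1 to 5 CPM 650 of 2879 rose and 83 fell. At 50 CPM or more, 770 rose and 885 fell of 4233. The 68 odorant and vomeronasal receptor genes, which tendon cells are not known to use, summed to 203, 176 and 142 CPM with neonatal supernatant, 385, 721 and 289 CPM with adult supernatant, and 44.5, 49.2 and 44.6 CPM in media. The part of this low-level signal in the rises of genes at a few CPM or less was not tested.

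**Figure D1:**
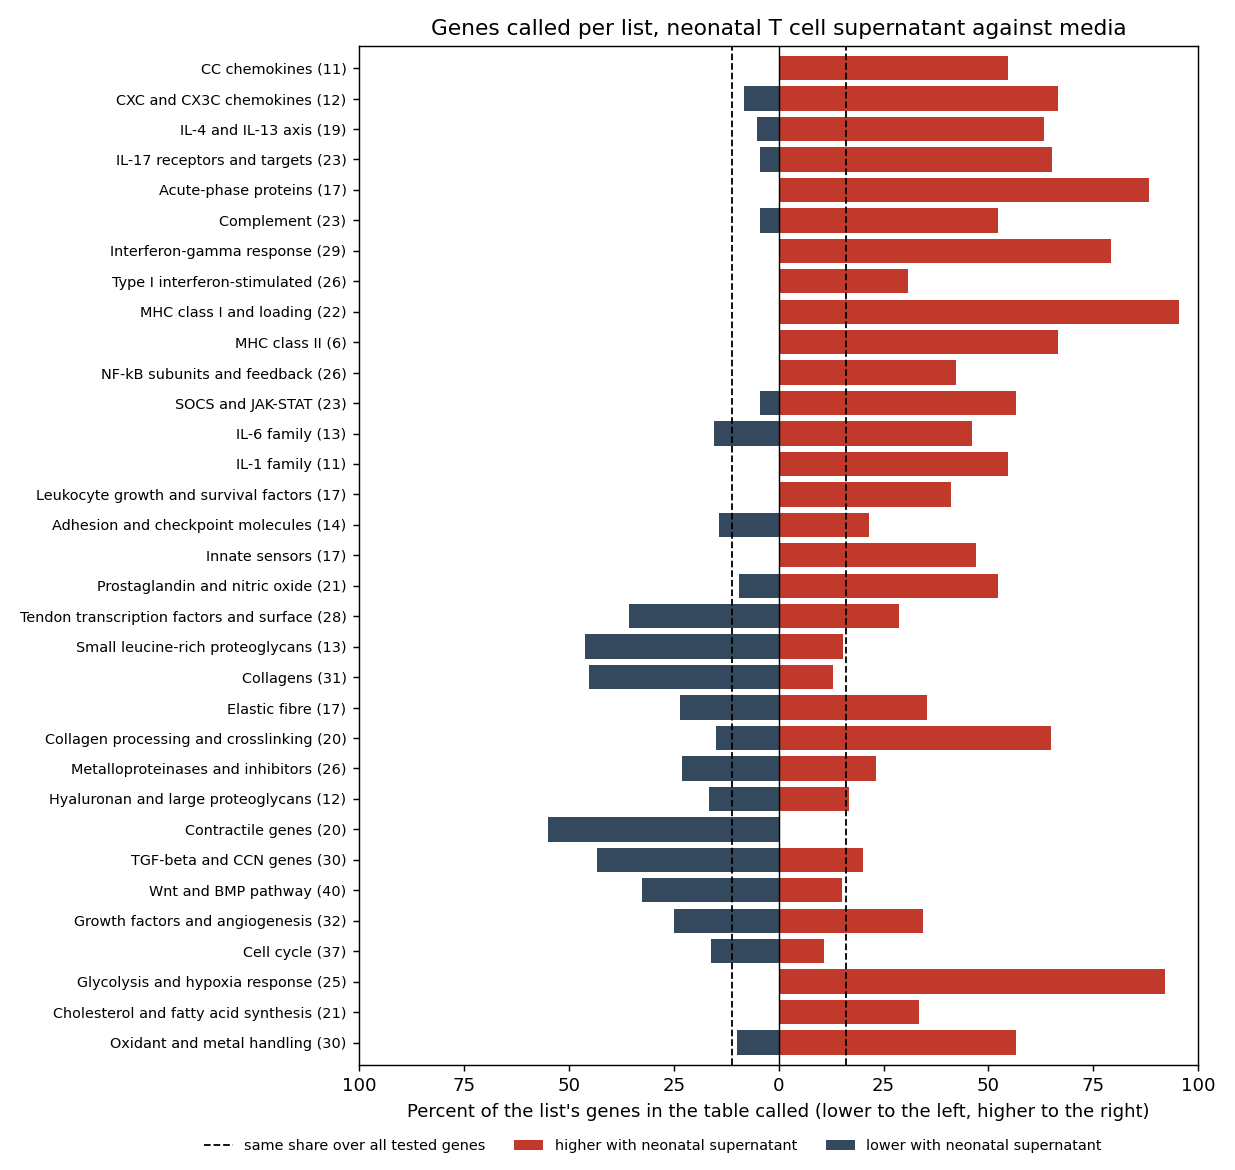
Share of the genes of each list in the table that were called higher (right) or lower (left) with neonatal T cell supernatant against media in adult tendon cells, in percent, with the number of genes in brackets. Dashed lines mark the same shares over all genes, 16.1% higher and 11.2% lower; glycolysis, acute-phase and class I lists lie far to the right and the contractile list only to the left.

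The largest rise among the genes named by rule was in a chemokine, a secreted attractant of leukocytes. Of 11 measured CC chemokine genes, 6 rose and none fell (median log2 fold change 1.59), and of 12 CXC and CX3C genes 8 rose and 1 fell (median 1.27). Ccl11, which encodes eotaxin, reached 703, 949 and 512 CPM in the libraries with neonatal supernatant, against 4.35, 9.42 and 3.69 CPM in media. No supernatant library came near the media range, and the log2 fold change was 7.04 ± 0.31 (adjusted p = 1.4e-10).

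The monocyte attractants rose together. Ccl2 had 909, 898 and 748 CPM with neonatal supernatant and 81.7, 89.8 and 73.4 CPM in media (3.38 ± 0.12, adjusted p = 4.2e-11). Ccl7 had 662, 677 and 561 CPM against 117, 118 and 108 CPM (2.47 ± 0.10, adjusted p = 4.7e-11). Ccl8, an attractant of monocytes and eosinophils, had 720.3, 730.3 and 358 CPM against 16.1, 22.7 and 19.9 CPM (4.89 ± 0.21, adjusted p = 1.4e-10). The groups overlapped in none of the 3, and supernatant library 3 was the lowest of its group in each. Ccl6, a macrophage chemokine, had 28.4, 47.5 and 24.5 CPM against 1.49, 1.17 and 1.01 CPM (4.73 ± 0.40, adjusted p = 1.8e-07).

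Most neutrophil attractants also rose, and the interferon-induced ligands of CXCR3 stayed at a few CPM. Cxcl5 had 806, 713 and 669.9 CPM with neonatal supernatant and 39.04, 46.6 and 37.1 CPM in media (4.16 ± 0.28, adjusted p = 1.6e-08). Cxcl1 had 70.2, 46.5 and 45.5 CPM against 3.75, 8.77 and 4.80 CPM (3.29 ± 0.38, adjusted p = 5.9e-06). Of the 5 measured neutrophil attractants, 4 rose. Cxcl10, a CXCR3 ligand that recruits activated T cells, had 3.06, 2.55 and 1.40 CPM against 1.25, 2.001 and 0.878 CPM, with overlapping groups, and did not pass (0.77 ± 0.44, adjusted p = 0.22). The other measured CXCR3 ligand, Cxcl9, had 2.73, 4.66 and 2.13 CPM against 0.680, 1.87 and 1.02 CPM and rose without overlap (1.46 ± 0.46, adjusted p = 0.024), a call lost after quantile normalization. Cxcl12, the homeostatic ligand of CXCR4, had 704, 875 and 821 CPM against 330.1, 398 and 419 CPM (1.07 ± 0.15, adjusted p = 3.8e-05), and its scavenger receptor Ackr3 rose as well (1.09 ± 0.14).

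**Figure D2:**
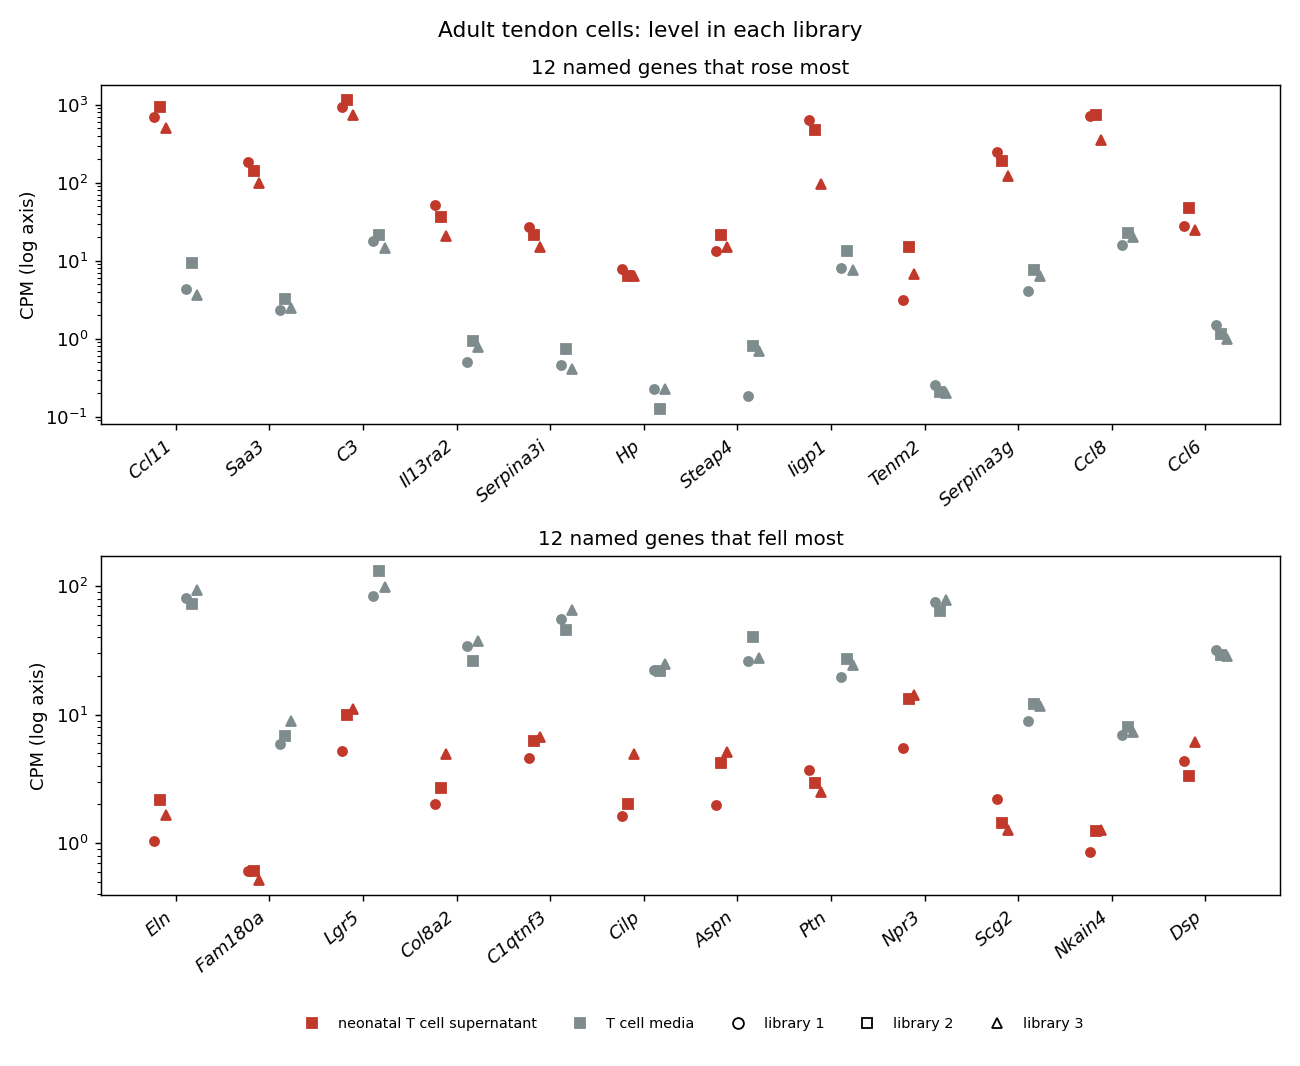
Level in CPM (log axis) of the 12 largest rises and the 12 largest falls named by rule, in the 3 libraries with neonatal T cell supernatant and the 3 media libraries of adult tendon cells, 1 symbol per library. Ccl11 lies at 512 to 949 CPM against 3.69 to 9.42 CPM in media, and Eln at 1.03 to 2.16 CPM against 72.3 to 94.4 CPM.

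Most measured genes of the IL-4 and IL-13 axis rose. Of 19 measured genes of the axis, 12 rose and 1 fell (median 0.82), and 3 of 4 receptor genes were among them. Il4ra, the chain shared by both cytokines, had 397, 359 and 353 CPM with neonatal supernatant and 47.4, 53.99 and 45.8 CPM in media (2.92 ± 0.11, adjusted p = 4.2e-11). Il13ra2, the decoy receptor for IL-13, had 51.4, 36.96 and 21.03 CPM against 0.500, 0.941 and 0.798 CPM (5.57 ± 0.43, adjusted p = 7.7e-08). All 3 supernatant libraries exceeded every media library in both genes, with library 3 the lowest for Il13ra2. The signalling chain Il13ra1 (1.84 ± 0.14) and the kinase Jak1 (0.67 ± 0.05) rose less. The member that fell was Postn, a matricellular protein that IL-13 induces in other settings, with 873, 1211 and 1445 CPM against 1639, 2066 and 1701 CPM (-0.64 ± 0.16, adjusted p = 0.0059).

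Of 23 genes for IL-17 receptors, adaptors and targets 15 rose and 1, the receptor-like Il17rd, fell (median 1.37). Il6, the pleiotropic cytokine, had 7.60, 8.96 and 8.55 CPM with neonatal supernatant and 1.41, 0.601 and 1.12 CPM in media (3.09 ± 0.51, adjusted p = 0.00023). Lcn2, an iron-sequestering lipocalin, had 19.3, 12.2 and 15.4 CPM against 1.03, 0.553 and 1.08 CPM (4.18 ± 0.73, adjusted p = 0.00041). Both genes were separated by group in all libraries and stayed under 20 CPM. Nfkbiz, the nuclear cofactor needed for many IL-17 targets, had 100.3, 97.4 and 77.6 CPM against 22.98, 29.7 and 22.01 CPM (1.89 ± 0.15), and the transcription factor Cebpd 124, 128 and 115 CPM against 30.5, 31.5 and 32.8 CPM (1.95 ± 0.16). Steap4, a metalloreductase, had 13.5, 21.4 and 14.9 CPM against 0.184, 0.803 and 0.699 CPM (5.11 ± 0.55, and 4.44 without media library 1). Several genes of this list are also targets of NF-kB or STAT3, so the list does not mark IL-17 alone.

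Acute-phase proteins, which the liver and inflamed stroma secrete, showed the highest median of the lists, 4.04, with 15 of 17 genes higher and none lower. Saa3, a serum amyloid, had 186, 143 and 101 CPM with neonatal supernatant and 2.32, 3.21 and 2.46 CPM in media (5.72 ± 0.66, adjusted p = 6.4e-06). Hp, which encodes haptoglobin, had 7.84, 6.32 and 6.45 CPM against 0.230, 0.127 and 0.230 CPM, where the media libraries lie at or near the lowest value of the table. Ptx3, a pattern-recognition pentraxin, had 2425, 2096 and 1792 CPM against 467, 514 and 467 CPM (2.12 ± 0.12, adjusted p = 4.5e-09). All 7 antichymotrypsin-like Serpina3 genes in the table rose, among them Serpina3n with 936, 1039 and 681 CPM against 57.99, 75.1 and 67.99 CPM (3.71 ± 0.16), Serpina3g (4.94 ± 0.23), Serpina3i (5.33 ± 0.37) and Serpina3f (4.04 ± 0.29). Members of this cluster are near-identical and reads may be split between them, so their single values are uncertain.

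The complement list gave 12 rises and 1 fall in 23 genes (median 0.78), and none of its 3 terminal-pathway genes passed. C3, the central component, had 934, 1140 and 751 CPM with neonatal supernatant and 17.9, 21.4 and 14.8 CPM in media (5.70 ± 0.38, adjusted p = 1.2e-08). The groups did not overlap in this gene, which the naming rule required. Serping1, the C1 inhibitor, rose (1.90 ± 0.27), and Cd59a, the membrane inhibitor of the terminal complex, fell to 7.21, 8.10 and 8.54 CPM, against 17.3, 15.01 and 15.97 CPM in media (-1.02 ± 0.14, adjusted p = 5.7e-05). Csmd1, a large membrane regulator, rose at the low levels at which the odorant receptor genes were also higher (4.68, 3.14 and 7.11 CPM against 0.319, 0.455 and 0.728 CPM).

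Interferon-gamma response genes rose in number but varied between the supernatant libraries. Of 29 measured genes, 23 rose and none fell (median 2.15). Without supernatant library 3 the count was 23 (median 2.65), without media library 2 it was 22 (median 2.40), and after quantile normalization it was 18. The mean level of the list was 4.68, 4.41 and 3.32 log2 CPM with neonatal supernatant and 1.68, 2.50 and 1.95 log2 CPM in media. Neither receptor gene was called, while all 4 transcription factors, all 6 immunity-related GTPases and 7 of 8 guanylate-binding proteins were.

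Irf1, an early transcription factor of the response, had 118, 91.4 and 47.9 CPM with neonatal supernatant and 22.6, 24.01 and 21.8 CPM in media (1.82 ± 0.21, adjusted p = 6.4e-06). Iigp1, a GTPase that attacks pathogen vacuoles, had 642, 469 and 95.5 CPM against 7.98, 13.3 and 7.71 CPM (5.04 ± 0.65, adjusted p = 2e-05). The groups did not overlap in either gene, as the naming rule required of Iigp1, and library 3 was the lowest of the supernatant group in both. Iigp1 had a log2 fold change of 5.88 without that library. Tgtp1 (4.01 ± 0.51, 4.80 without supernatant library 3) and Tgtp2 (4.11 ± 0.46, 4.87 without it) behaved alike, and these 2 GTPases are near-identical copies whose single values are uncertain, as are those of the Gbp family. Nos2, the inducible nitric oxide synthase, had 41.3, 25.8 and 11.3 CPM against 3.93, 4.70 and 3.17 CPM (2.56 ± 0.38, adjusted p = 8.4e-05).

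For the interferon-responsive and STAT-regulated genes, promoter windows show the letters to which these factors bind. A gamma-activated site (GAS), TTCNNNGAA, was searched on both strands in windows from 250 bases before to 50 after the RefSeq transcription start (GRCm38.p6), as was an interferon-regulatory element, GAAA followed by any 2 bases and another GAAA. The 2 motifs were counted separately and may overlap. GAS letters occurred in 8.42% of the 10502 genes in the table with a window, counted in any of a gene's windows. They occurred in 9 of 18 such genes of the interferon-gamma list, in 5 of 13 of the acute-phase list and in 3 of 17 of the SOCS and JAK-STAT list. The interferon-regulatory element occurred in 3.73% of the genes in the table with a window. It occurred in 11 of 18 such genes of the interferon-gamma list, in 10 of 19 of the type I list and in 5 of 19 of the class I list. Among 831 genes called at least 2-fold higher with a window, 10.47% and 7.1% held them. The lists were made of genes held to answer these factors, with earlier results known, so their shares say nothing of this response. The 5 windows printed were chosen after the values were seen, as risen genes of 3 lists that hold a match. Capitals mark the matches, and a match is a description of letters, not a site shown to be bound. In Irgm2 the capitals mark a GAS that starts 75 bases before the start, followed by an interferon-regulatory element.
Irgm2, chr11:58214727-58215026, plus strand: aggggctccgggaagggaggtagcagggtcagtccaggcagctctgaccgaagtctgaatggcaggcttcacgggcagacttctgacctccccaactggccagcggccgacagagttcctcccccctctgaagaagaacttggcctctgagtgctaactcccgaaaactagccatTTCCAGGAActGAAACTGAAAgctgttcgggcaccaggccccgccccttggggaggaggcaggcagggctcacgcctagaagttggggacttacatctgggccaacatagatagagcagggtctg
Irf1, chr11:53769764-53770063, plus strand: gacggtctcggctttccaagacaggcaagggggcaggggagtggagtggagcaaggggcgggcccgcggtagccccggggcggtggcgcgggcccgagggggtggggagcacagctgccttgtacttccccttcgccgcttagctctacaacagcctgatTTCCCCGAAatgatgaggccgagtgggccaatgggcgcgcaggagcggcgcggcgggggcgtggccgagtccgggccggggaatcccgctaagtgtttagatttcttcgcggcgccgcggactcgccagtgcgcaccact
Serpina3i, chr12:104262872-104263171, plus strand: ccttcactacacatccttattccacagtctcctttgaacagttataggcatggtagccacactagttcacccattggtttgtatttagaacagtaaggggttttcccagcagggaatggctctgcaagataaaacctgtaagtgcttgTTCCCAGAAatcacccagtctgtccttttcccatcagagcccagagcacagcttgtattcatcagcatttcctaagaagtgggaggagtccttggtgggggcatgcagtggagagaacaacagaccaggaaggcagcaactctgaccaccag
Socs3, chr11:117969317-117969616, minus strand: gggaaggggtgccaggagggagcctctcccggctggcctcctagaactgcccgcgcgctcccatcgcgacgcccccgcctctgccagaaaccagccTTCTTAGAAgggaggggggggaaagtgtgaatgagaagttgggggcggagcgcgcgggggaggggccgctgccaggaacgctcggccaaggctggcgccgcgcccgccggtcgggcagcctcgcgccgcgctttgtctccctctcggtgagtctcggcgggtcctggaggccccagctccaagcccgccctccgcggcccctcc
Cish, chr9:107296409-107296708, plus strand: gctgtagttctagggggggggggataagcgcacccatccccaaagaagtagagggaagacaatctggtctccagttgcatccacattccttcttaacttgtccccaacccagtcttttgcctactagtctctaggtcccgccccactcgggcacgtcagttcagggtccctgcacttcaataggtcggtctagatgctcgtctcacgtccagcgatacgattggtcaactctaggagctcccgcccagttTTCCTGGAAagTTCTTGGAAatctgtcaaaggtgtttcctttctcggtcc
Irgm2, an immunity-related GTPase with both motifs, had 180.4, 173 and 58.2 CPM with neonatal supernatant and 8.98, 27.4 and 6.12 CPM in media (3.41 ± 0.63, adjusted p = 0.00066).

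Counts of type I interferon-stimulated genes depended on single libraries. Of 26 genes 8 rose and none fell (median 1.34), 14 rose when supernatant library 3 was left out, 14 when media library 2 was left out and 4 after quantile normalization. Zbp1, a nucleic acid sensor, had 76.02, 78.97 and 14.4 CPM with neonatal supernatant and 1.33, 4.14 and 1.67 CPM in media (4.40 ± 0.81, adjusted p = 0.00065, 5.21 without supernatant library 3). Bst2, or tetherin, had 153, 227 and 42.5 CPM against 20.5, 68.9 and 19.3 CPM, so that the groups overlapped (1.92 ± 0.60, adjusted p = 0.025). It reached 2.63 without supernatant library 3 and 2.52 without media library 2, and it was not called without any 1 of the other 4 libraries (adjusted p = 0.093 to 0.13).

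Antigen presentation by MHC class I rose across most of the pathway. Of 22 genes 21 rose and none fell (median 1.36), namely all 8 heavy chains, the light chain, 6 of 7 transport and loading genes, all 5 immunoproteasome genes and the coactivator Nlrc5. Without supernatant library 3 the count of rises was 22, and without media library 2 it was 21. H2-Q4, a non-classical heavy chain, had 171, 148 and 42.9 CPM with neonatal supernatant and 4.98, 9.90 and 5.37 CPM in media (4.001 ± 0.40, adjusted p = 1.3e-06, 4.63 without supernatant library 3). H2-Q7 (3.31 ± 0.36) and H2-Q6 (3.11 ± 0.33) are close copies whose reads may be split. Psmb9, an immunoproteasome subunit, had 21.8, 21.6 and 8.64 CPM against 1.56, 3.24 and 1.63 CPM (2.98 ± 0.31, adjusted p = 2.2e-06). The groups were apart in each of these genes, with supernatant library 3 nearest to media. Of 6 class II genes 4 rose, all at low level, led by H2-Ab1 with 8.88, 7.38 and 9.83 CPM against 1.95, 2.30 and 1.57 CPM (2.17 ± 0.28). The class II coactivator Ciita had 2.62, 1.99 and 1.88 CPM against 0.127, 0.888 and 0.424 CPM (2.56 ± 0.67, adjusted p = 0.0087), and was not called without media library 1 (1.80, adjusted p = 0.055), while it reached 3.20 without media library 2. Cd74, the invariant chain, and H2-Aa, listed at the lowest value in all media libraries, were not called after quantile normalization (adjusted p = 0.19 and 0.27).

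**Figure D3:**
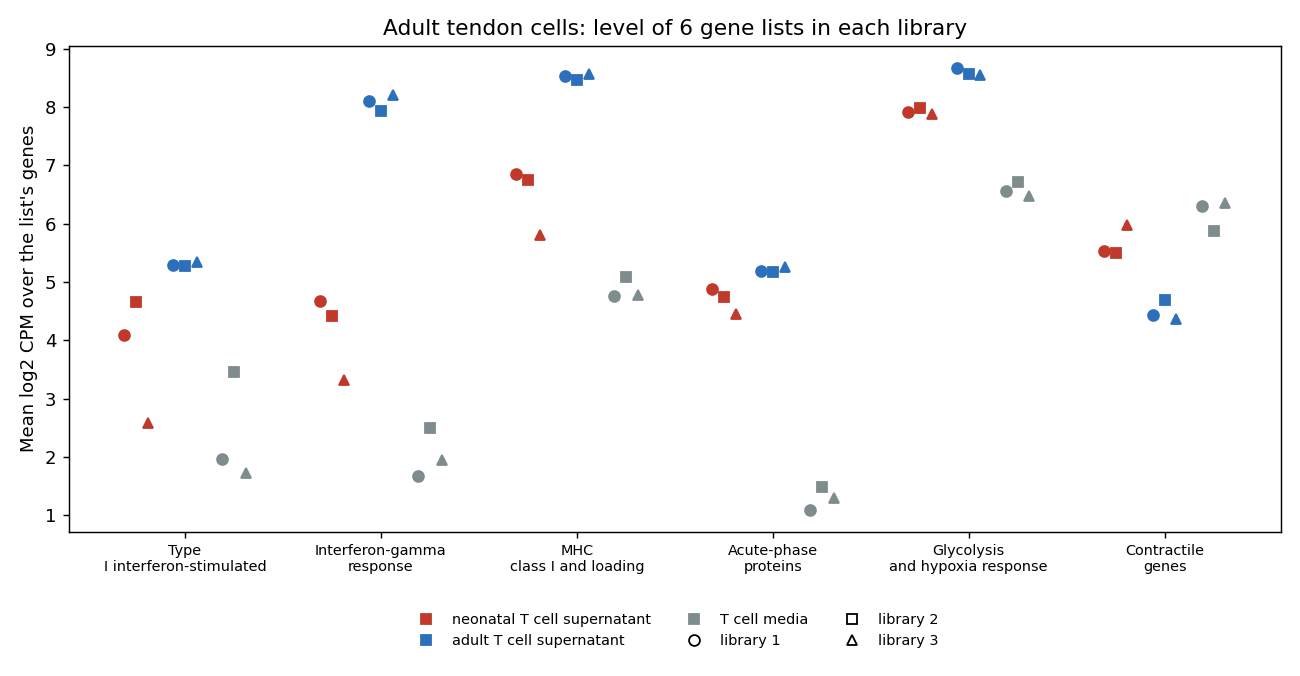
Mean log2 CPM of selected gene lists in each library of adult tendon cells with neonatal supernatant, adult supernatant and media, 1 symbol per library. The type I interferon list of supernatant library 3 (2.59) lies below that of media library 2 (3.45), and the interferon-gamma list lies at 3.32 to 4.68 with neonatal supernatant, 7.94 to 8.21 with adult supernatant and 1.68 to 2.50 in media.

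Of 8 feedback inhibitors of cytokine signalling 4 rose and 1 fell (median log2 fold change 0.21). In the SOCS and JAK-STAT list 13 of 23 genes rose and 1 fell (median log2 fold change 0.41). Socs3, which shuts off gp130 receptors, had 127, 108 and 95.8 CPM with neonatal supernatant and 11.2, 17.7 and 13.6 CPM in media (2.98 ± 0.19, adjusted p = 7.8e-09). Cish, a target and inhibitor of STAT5, had 43.4, 34.8 and 25.6 CPM against 7.62, 6.88 and 5.74 CPM (2.33 ± 0.21, adjusted p = 4.5e-07). The windows of both hold GAS letters, at 154 bases before the start in Socs3 and, 2 times, from the start onward in Cish. Pim1 (1.45 ± 0.15) and Bcl6 (0.85 ± 0.08), both STAT targets, rose too. In the NF-kB list 11 of 26 genes rose and none fell (median 0.29), including the subunit precursor Nfkb1 (1.19 ± 0.11), the coactivator Bcl3 (2.34 ± 0.26), the kinase Map3k14 (1.35 ± 0.13) and Tnfaip2 (1.22 ± 0.11).

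Of the IL-6 family receptors, beside the shared chain, 2 of 6 rose and 1 fell, and of the IL-1 family receptors 4 of 6 rose and none fell. In the IL-6 family 6 of 13 genes rose and 2 fell. Without supernatant library 3, 5 rose and 1 fell, and without media library 2, 4 rose and 1 fell. Osmr, the oncostatin M receptor chain, had 289.8, 269.9 and 279.8 CPM with neonatal supernatant and 139.6, 158 and 134 CPM in media (0.96 ± 0.08, adjusted p = 2.1e-07). Il6st, which encodes gp130, rose (0.87 ± 0.10) and Il11ra1 fell (-0.61 ± 0.12). In the IL-1 family 6 of 11 genes rose, with neither ligand in the table among them. Il1r1 had 145, 136 and 136 CPM against 47.4, 49.7 and 45.4 CPM (1.55 ± 0.17, adjusted p = 3.9e-06), its accessory chain Il1rap rose (1.53 ± 0.10), and the IL-33 receptor Il1rl1 rose (0.85 ± 0.13). Il18bp, an antagonist of IL-18, overlapped between groups (6.27, 5.14 and 1.07 CPM against 1.18, 0.651 and 0.127 CPM), and its call was lost without supernatant library 1 or 2 or media library 3 (adjusted p = 0.066, 0.056 and 0.077).

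Signals to leukocytes and innate sensors gave smaller groups of rises. Of 17 leukocyte growth and survival factors 7 rose and none fell, including Kitl, the stem cell factor (0.77 ± 0.13), and the TNF receptor Tnfrsf1b (0.84 ± 0.11). Of 17 innate sensors 8 rose and none fell. Nod1, a sensor of bacterial cell walls, had 68.6, 65.8 and 55.02 CPM with neonatal supernatant and 21.5, 21.4 and 21.3 CPM in media (1.55 ± 0.08, adjusted p = 1.7e-09). Casp4, the caspase-11 gene of mouse, had 26.4, 30.1 and 23.5 CPM against 3.46, 6.85 and 3.94 CPM (2.55 ± 0.33, adjusted p = 2.1e-05). In these 2 genes the groups were clearly apart. Of 14 adhesion and checkpoint genes 3 rose and 2 fell, near the shares over all genes (16.1% higher and 11.2% lower). Cd274, or PD-L1, which sits in the interferon-gamma list too, had 19.7, 14.4 and 7.79 CPM against 3.93, 4.19 and 3.46 CPM (1.76 ± 0.28). Alcam, an adhesion molecule, fell to 9.60, 9.54 and 16.9 CPM, against 27.5, 38.3 and 28.4 CPM in media (-1.43 ± 0.20).

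Among 21 prostaglandin and nitric oxide genes 11 rose and 2 fell (1 without supernatant library 3). Ptgs1, the constitutive cyclooxygenase, had 136, 128 and 103 CPM with neonatal supernatant and 65.4, 67.2 and 56.7 CPM in media (0.95 ± 0.11, adjusted p = 5.7e-06). Ptgs2, the inducible cyclooxygenase, overlapped between groups, at 507, 344 and 442 CPM against 365, 187 and 308 CPM (0.63 ± 0.21, adjusted p = 0.031). Its call was lost without media library 2 (0.35, adjusted p = 0.18), without supernatant library 1 (0.50, 0.14) or 3 (0.60, 0.075), with no trend (0.059) and with only the compared groups (0.094). The arginine transporter Slc7a2 had 328, 342 and 301 CPM against 89.9, 145 and 90.6 CPM (1.61 ± 0.17, adjusted p = 3.1e-06), with no overlap.

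Transcripts of the listed glycolysis genes rose broadly. Of 25 genes of glycolysis and the hypoxia response 23 rose and none fell (median 1.21), among them both transporters and all 14 enzymes. Without supernatant library 3, and likewise without media library 2, 13 of the 14 enzymes were called. Pkm, the pyruvate kinase of muscle and proliferating cells, had 4005, 3723 and 3772 CPM with neonatal supernatant and 1873, 1857 and 1848 CPM in media (1.04 ± 0.06, adjusted p = 2e-09). Pgk1 had 1665, 1598 and 1659 CPM against 631, 623 and 599 CPM (1.41 ± 0.10, adjusted p = 3.7e-08). Ldha, which makes lactate, had 1860, 1758 and 1799 CPM against 798, 768 and 778 CPM (1.21 ± 0.10, adjusted p = 1e-07). In all 3 genes the spread within a group was small against the gap between the groups, and no library stood apart. Pfkfb3, which makes the activator of phosphofructokinase, rose by 2.09 ± 0.14 on the log2 scale.

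The hypoxia-response letters ACGTG, the core bound by HIF factors, were searched on both strands in the same promoter windows. Counted in any of a gene's windows, they occurred in 28.35% of genes in the table with a window and in 24.19% of those called at least 2-fold higher. In the glycolysis list, 18 of 24 genes with a window held them. This list was made of hypoxia-response and glycolysis genes with earlier results known, so its share says nothing of this response. The windows of Ldha and Pgk1 are printed as examples chosen after the values were seen, with the matches in capitals. In Ldha 5 matches, some of them overlapping on opposite strands, form 3 runs, and in Pgk1 there are 2 matches.
Ldha, chr7:46845554-46845853, plus strand: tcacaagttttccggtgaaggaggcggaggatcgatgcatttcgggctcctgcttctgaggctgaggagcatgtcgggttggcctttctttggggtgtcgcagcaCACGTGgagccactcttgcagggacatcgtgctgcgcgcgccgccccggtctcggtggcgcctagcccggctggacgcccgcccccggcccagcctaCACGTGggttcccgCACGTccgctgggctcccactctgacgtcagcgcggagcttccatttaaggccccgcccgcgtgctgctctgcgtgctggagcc
Pgk1, chrX:106186850-106187149, plus strand: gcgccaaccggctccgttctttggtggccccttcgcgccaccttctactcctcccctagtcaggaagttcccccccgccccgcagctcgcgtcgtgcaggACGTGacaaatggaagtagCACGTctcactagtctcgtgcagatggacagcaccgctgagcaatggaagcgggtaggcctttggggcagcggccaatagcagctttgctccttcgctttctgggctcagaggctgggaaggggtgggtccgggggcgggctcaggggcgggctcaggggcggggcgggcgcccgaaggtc

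Genes of metal and oxidant handling were mostly higher, with 17 of 30 genes higher and 3 lower (median 0.59), and none lower without supernatant library 3. Mt2, a metallothionein that binds zinc and copper, had 209, 229 and 166 CPM with neonatal supernatant and 15.1, 22.98 and 17.7 CPM in media (3.44 ± 0.22, adjusted p = 1e-08), and Mt1 had 233, 239 and 186 CPM against 49.1, 54.5 and 63.9 CPM (1.97 ± 0.15). Fth1, the ferritin heavy chain, had 3615, 3579 and 3123 CPM against 1423, 1581 and 1590 CPM (1.17 ± 0.07, adjusted p = 6.2e-09). The metalloreductases Steap1 (1.32 ± 0.08) and Steap2 (1.36 ± 0.10) rose as Steap4 did. Of the 8 NRF2 targets 4 rose and 1 fell. Cholesterol and fatty acid synthesis gave 7 rises and no fall in 21 genes (median 0.23), among them Scd1, a fatty acid desaturase (0.59 ± 0.09).

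Tendon genes moved in both directions. Of 28 transcription factor, surface and interface genes 8 rose and 10 fell (median -0.25). Scx, the tendon lineage factor scleraxis, fell to 8.33, 7.60 and 9.61 CPM with neonatal supernatant, against 16.7, 11.6 and 19.4 CPM in media (-0.88 ± 0.23, adjusted p = 0.0077), a call that was lost after quantile normalization (adjusted p = 0.068). Mkx, the homeobox factor Mohawk, had 11.8, 16.5 and 15.4 CPM against 4.29, 4.86 and 8.34 CPM and rose (1.37 ± 0.27, adjusted p = 0.0011). Tnmd, the tendon surface protein tenomodulin, fell to 2.09, 4.57 and 2.66 CPM, against 8.04, 10.3 and 8.99 CPM (-1.62 ± 0.30, adjusted p = 0.00063). None of these 3 genes overlapped between the groups. Sox9, a cartilage and enthesis factor, rose (0.94 ± 0.10).

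Of the 14 interface and lubrication genes in that list 3 rose and 6 fell (median -0.50), and of the 5 surface genes 2 rose and 1 fell. Prg4, or lubricin, had 2058, 1717 and 2205 CPM with neonatal supernatant and 882, 838 and 736 CPM in media (1.28 ± 0.12, adjusted p = 9.1e-07). Comp, the cartilage oligomeric matrix protein, had 412, 370.5 and 470.4 CPM against 224, 228 and 278 CPM (0.78 ± 0.11, adjusted p = 5.8e-05). Cilp, a cartilage intermediate layer protein, fell to 1.63, 2.02 and 4.97 CPM, against 22.3, 21.7 and 24.98 CPM (-3.18 ± 0.35, adjusted p = 3.6e-06). The groups were apart in all 3 genes, and supernatant library 3 kept the most Cilp. Among 13 small leucine-rich proteoglycans 2 rose (1 without supernatant library 3) and 6 fell. The rises lie near the share over all genes (16.1% higher and 11.2% lower). Aspn fell to 1.96, 4.17 and 5.13 CPM, against 26.1, 40.6 and 27.9 CPM (-3.15 ± 0.39, adjusted p = 1.1e-05), and fibromodulin, Fmod, to 442, 364 and 587 CPM, against 642, 730.2 and 762 CPM (-0.64 ± 0.13). Ogn (-1.52 ± 0.25) and Podn (-1.55 ± 0.31) fell as well, and the low-level Podnl1 rose (1.51 ± 0.29).

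More collagen genes fell than rose. Of 31 genes 4 rose and 14 fell (median -0.48), and 3 rose and 12 fell after quantile normalization. Over all genes 16.1% were higher and 11.2% lower. Of the 11 fibril-forming chains 1 rose and 4 fell (2 fell after quantile normalization), and of the 10 network and microfibril chains 2 rose and 7 fell. Col1a1, the main tendon collagen chain, had 12724, 12615 and 17165 CPM with neonatal supernatant and 18805, 19578 and 20332 CPM in media (-0.48 ± 0.10, adjusted p = 0.0016), a fall that went to 0.00 after quantile normalization. Col3a1, the chain of early repair matrix, had 5049, 7421 and 6753 CPM against 3730, 5212 and 3689 CPM, with the groups overlapping (0.61 ± 0.15, adjusted p = 0.0068). Col5a1, which nucleates collagen I fibrils, fell to 1951, 1880 and 2687 CPM, against 3982, 3927 and 3942 CPM (-0.88 ± 0.12). The short-chain network collagen Col8a2 fell most, to 2.01, 2.70 and 4.93 CPM against 34.2, 26.4 and 37.5 CPM (-3.43 ± 0.38, adjusted p = 3.9e-06), and Col8a1 (-0.85 ± 0.07), Col11a1 (-1.26 ± 0.14) and the basement membrane chain Col4a5 (-1.15 ± 0.08) also fell.

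Elastin had the largest fall that the naming rule found. Eln was at 1.03, 2.16 and 1.67 CPM with neonatal supernatant and at 81.7, 72.3 and 94.4 CPM in media (-5.73 ± 0.58, adjusted p = 1.5e-06). The rest of the elastic fibre list went both ways, with 6 rises and 4 falls in 17 genes: Fbn2, a microfibril protein of developing tissue, fell (-1.81 ± 0.23), while the assembly proteins Fbln1 (1.33 ± 0.15) and Efemp2 (0.63 ± 0.06) rose.

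Collagen-crosslinking enzymes rose as a group. In the collagen processing list 13 of 20 genes rose and 3 fell (median 0.52), and all 8 crosslinking genes were among the rises. Lox, the lysyl oxidase of collagen and elastin, had 12290, 12940 and 12965 CPM with neonatal supernatant and 9220, 8787 and 8662 CPM in media (0.52 ± 0.07, adjusted p = 2.5e-05). Loxl3 had 1009, 957 and 906 CPM against 417, 389 and 438 CPM (1.21 ± 0.06, adjusted p = 1.3e-09). Bmp1, the procollagen C-proteinase, rose (0.98 ± 0.07), and its enhancer Pcolce2 had 128, 125 and 95.9 CPM against 21, 20.9 and 19.6 CPM (2.49 ± 0.16, adjusted p = 7.8e-09). The libraries of the 2 groups were apart in all of these genes.

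Matrix-degrading enzymes split, 6 of 26 higher and 6 lower, where 16.1% of all genes were higher and 11.2% lower. Mmp3, or stromelysin 1, had 66, 54.4 and 83.6 CPM with neonatal supernatant and 4.92, 7.37 and 6.91 CPM in media (3.41 ± 0.43, adjusted p = 1.5e-05). Mmp13, the main rodent interstitial collagenase, had 30.5, 28.96 and 32.1 CPM against 6.64, 13.6 and 6.52 CPM (1.86 ± 0.45, adjusted p = 0.0049). Mmp12, the macrophage elastase, had 86.5, 80.6 and 78.9 CPM against 9.47, 9.74 and 8.83 CPM (3.13 ± 0.46, adjusted p = 6.8e-05). These 3 secreted proteases rose without overlap, beside the inhibitor Timp1 (1.95 ± 0.12), while the membrane types Mmp14 (-0.47 ± 0.07) and Mmp15 (-1.74 ± 0.21) fell. Of 12 hyaluronan and large proteoglycan genes 2 rose and 2 fell, near the shares over all genes (16.1% higher and 11.2% lower). Among the rises was versican, Vcan, at 726, 618 and 620.4 CPM against 233, 253 and 209.9 CPM (1.50 ± 0.10).

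The contractile genes that were called all fell. Of 20 genes 11 fell and none rose (median -0.59), a count of 12 without supernatant library 3 and 11 without media library 2. Acta2, the smooth muscle actin of myofibroblasts, fell to 984, 851 and 1449 CPM with neonatal supernatant, against 2708, 1683 and 3060 CPM in media (-1.17 ± 0.20, adjusted p = 0.00026). Supernatant library 3 was the highest of its group and media library 2 the lowest of its own, and the groups did not overlap. Lmod1, a leiomodin of smooth muscle, fell (-1.46 ± 0.25), and tropomyosin Tpm1 fell (-0.70 ± 0.12). None of the 4 transcription factors of this list was called.

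Tgfb2, Tgfb3 and some CCN genes fell. In the TGF-beta and CCN list 6 of 30 genes rose and 13 fell, where 16.1% of all genes were higher and 11.2% lower. Of the 7 ligands 3 were on each side, and of the 9 CCN and YAP-responsive genes 6 fell and none rose. Tgfb2 fell to 9.24, 8.60 and 16.4 CPM with neonatal supernatant, against 55.4, 56.7 and 52.6 CPM in media (-2.33 ± 0.26, adjusted p = 3.9e-06). Tgfb3 fell to 97.8, 93.5 and 134 CPM, against 364, 235 and 316 CPM (-1.49 ± 0.17, adjusted p = 4.9e-06). Nov, or CCN3, fell to 52.1, 76.9 and 73.04 CPM, against 289, 463 and 358 CPM (-2.45 ± 0.20, adjusted p = 1.4e-07), and Wisp1, or CCN4, fell (-1.44 ± 0.13). The groups were apart in each of the 4 genes. Tgfbr3, the coreceptor betaglycan, rose (1.28 ± 0.12).

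Wnt and BMP pathway genes gave 6 rises and 13 falls in 40. The rises lie near the share over all genes (16.1% higher and 11.2% lower). Lgr5, a receptor for R-spondins and a Wnt target, fell to 5.21, 9.999 and 11.1 CPM with neonatal supernatant, against 84.4, 131 and 98.4 CPM in media (-3.62 ± 0.47, adjusted p = 2.3e-05). The antagonists went apart: Sfrp1 had 1422, 1411 and 1334 CPM against 442, 560.4 and 427 CPM and rose (1.55 ± 0.13), while Dkk2 fell (-1.40 ± 0.14). Among BMP antagonists Grem1 had 1395, 979 and 845 CPM against 198, 148 and 192 CPM and rose (2.56 ± 0.15, adjusted p = 5.8e-09), and noggin, Nog, fell to 3.18, 1.39 and 1.82 CPM, against 12.9, 6.996 and 17.5 CPM (-2.54 ± 0.32).

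Most cell division genes were not called. Of 37 cell cycle genes 4 rose (2 without media library 2) and 6 fell, and 4 of the 6 falls were in the 6 inhibitors. Over all genes 16.1% were higher and 11.2% lower, so the counts of the whole list lie near those shares. Mki67, a marker of dividing cells, had 27.1, 26.3 and 28.6 CPM with neonatal supernatant and 29.5, 27.99 and 19.6 CPM in media, with overlapping groups, and did not pass (0.11 ± 0.18, adjusted p = 0.7). Cdkn2b, the CDK inhibitor p15 that TGF-beta induces, fell to 89.2, 98.9 and 105 CPM, against 237, 228 and 240.2 CPM (-1.27 ± 0.08, adjusted p = 6.5e-09). Cdkn1c, or p57, fell to 3.93, 5.73 and 3.68 CPM, against 29.7, 27.5 and 25.2 CPM (-2.65 ± 0.30), and Cdkn1a, or p21, fell less (-0.60 ± 0.06). Ccnd2 (-0.65 ± 0.07) and Rrm1 (-0.99 ± 0.07) also fell.

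The rest of the genes with the largest changes belonged to none of these groups. Fam180a fell to 0.601, 0.602 and 0.517 CPM with neonatal supernatant, against 5.90, 6.81 and 8.95 CPM in media (-3.64 ± 0.42). C1qtnf3, a secreted adipokine-like protein, fell to 4.60, 6.29 and 6.65 CPM, against 55.4, 46.1 and 65.8 CPM (-3.26 ± 0.21). Npr3, the clearance receptor of natriuretic peptides, fell to 5.49, 13.3 and 14.2 CPM, against 75.3, 64.5 and 77.8 CPM (-2.84 ± 0.25). These 3 are among the falls named by rule, so their groups were apart by that choice. Pleiotrophin, Ptn (-2.97 ± 0.24), secretogranin 2, Scg2 (-2.77 ± 0.56), Nkain4 (-2.77 ± 0.36) and desmoplakin, Dsp (-2.74 ± 0.44), fell too. Tenm2, a teneurin adhesion protein, rose but varied among the supernatant libraries, at 3.16, 15.02 and 6.73 CPM against 0.255, 0.209 and 0.203 CPM (4.95 ± 0.82, adjusted p = 0.00025).

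Adult cells responded differently to neonatal and to adult T cell supernatant in 4110 genes (28.6% of 14391), 2171 higher (15.1%) and 1939 lower (13.5%) with neonatal supernatant. This direct test does not pass through the media libraries. The median over all genes was -0.01. Interferon-gamma response genes were lower with neonatal supernatant in 27 of 29 and higher in none (median -3.96), and class I genes lower in 20 of 22 and higher in 2 (median -1.92). Nos2 had 41.3, 25.8 and 11.3 CPM with neonatal supernatant and 3558, 3153 and 3325 CPM with adult supernatant (-7.19 ± 0.38, adjusted p = 1.2e-09). Wars, the tryptophanyl-tRNA synthetase that interferon-gamma induces, had 106, 106 and 95.2 CPM against 576, 458 and 582 CPM (-2.39 ± 0.09, adjusted p = 1.4e-11), and with neonatal supernatant it overlapped the media range (99.8, 97.4 and 102 CPM in media, adjusted p = 0.79 against media). Type I interferon genes were lower in 9 of 26 and higher in none.

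Chemokines and acute-phase genes went both ways between the supernatants. Ccl11 was higher with neonatal supernatant, at 703, 949 and 512 CPM against 189.9, 183 and 264 CPM with adult supernatant (1.74 ± 0.31, adjusted p = 0.00032). Ccl6 was also higher (1.67 ± 0.40), and Ccl2 lower (-0.62 ± 0.12). Cxcl10 had 3.06, 2.55 and 1.40 CPM against 141, 101 and 175 CPM (-5.93 ± 0.44, adjusted p = 3.5e-08). Cxcl5 did not pass, at 806, 713 and 669.9 CPM against 856, 784 and 1021 CPM (-0.28 ± 0.28, adjusted p = 0.5), which does not show that the supernatants act alike on it. Of the 11 CC chemokines 3 were higher and 3 lower, and of the 12 CXC and CX3C chemokines 2 and 7 (median -1.11). Of the acute-phase genes 4 of 17 were higher and 7 lower, and of the IL-17 list none and 13 of 23. The IL-4 and IL-13 list, which holds Ccl11, was higher in 3 of 19 genes and lower in 9 (median -0.49). In it 3 of 4 receptor genes were lower and none higher. Il6 had 7.60, 8.96 and 8.55 CPM against 76.4, 48.5 and 63.2 CPM (-2.88 ± 0.51, adjusted p = 0.00032), while C3 did not pass (0.55 ± 0.38, adjusted p = 0.31).

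Many matrix genes were higher with neonatal than with adult supernatant. Collagens were higher in 18 of 31 and lower in none (median 0.70), tendon genes higher in 16 of 28 and lower in 3, and contractile genes higher in 11 of 20 and lower in none. Col6a1, a chain of the pericellular collagen VI, had 1446, 1644 and 1852 CPM with neonatal supernatant and 219.8, 232 and 254 CPM with adult supernatant (2.80 ± 0.11, adjusted p = 3.7e-11). Comp had 412, 370.5 and 470.4 CPM against 74.05, 70.9 and 66.7 CPM (2.56 ± 0.11, adjusted p = 1.3e-10). In media Comp had 224, 228 and 278 CPM, so that the 2 supernatants lay on opposite sides of it. Gas6, a ligand of TAM receptors, had 1242, 1320 and 1541 CPM against 281, 309.7 and 318 CPM (2.17 ± 0.07), and Cygb, or cytoglobin, 201, 227 and 223 CPM against 27.2, 33.2 and 22.3 CPM (2.99 ± 0.13). The choline transporter Slc5a7 (3.51 ± 0.18), the IGF-binding protein protease Pappa (3.14 ± 0.17), Mmp11 (2.28 ± 0.12) and Col6a2 (2.44 ± 0.11) were higher, as were Mxra7 (1.85 ± 0.10) and the fatty acid desaturase Fads2 (1.42 ± 0.08).

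Stress, metabolic and cell cycle genes also separated the supernatants. Hmox1, haem oxygenase 1, had 954, 824 and 925 CPM with neonatal supernatant and 2904, 2788 and 2747 CPM with adult supernatant (-1.65 ± 0.07, adjusted p = 1.4e-10). Prdx1, a peroxiredoxin, had 444, 389.8 and 389 CPM against 1210, 1140 and 1492 CPM (-1.64 ± 0.09). Glycolysis and hypoxia genes were lower in 18 of 25 and higher in none, and cholesterol and fatty acid genes higher in 15 of 21 and lower in none. Cell cycle genes were higher in 20 of 37 and lower in 1 (median 0.55). Mki67 had 27.1, 26.3 and 28.6 CPM against 11.1, 13.6 and 11.2 CPM (1.20 ± 0.18, adjusted p = 8.5e-05). The chromatin protein Hmga2 (-1.40 ± 0.07), the transporter Slco3a1 (-2.62 ± 0.12), stomatin, Stom (-1.62 ± 0.09), Cttnbp2nl (-1.45 ± 0.06), Tshz1 (-1.43 ± 0.08) and the importin Ipo5 (-1.20 ± 0.07) were lower with neonatal supernatant.

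**Figure D4:**
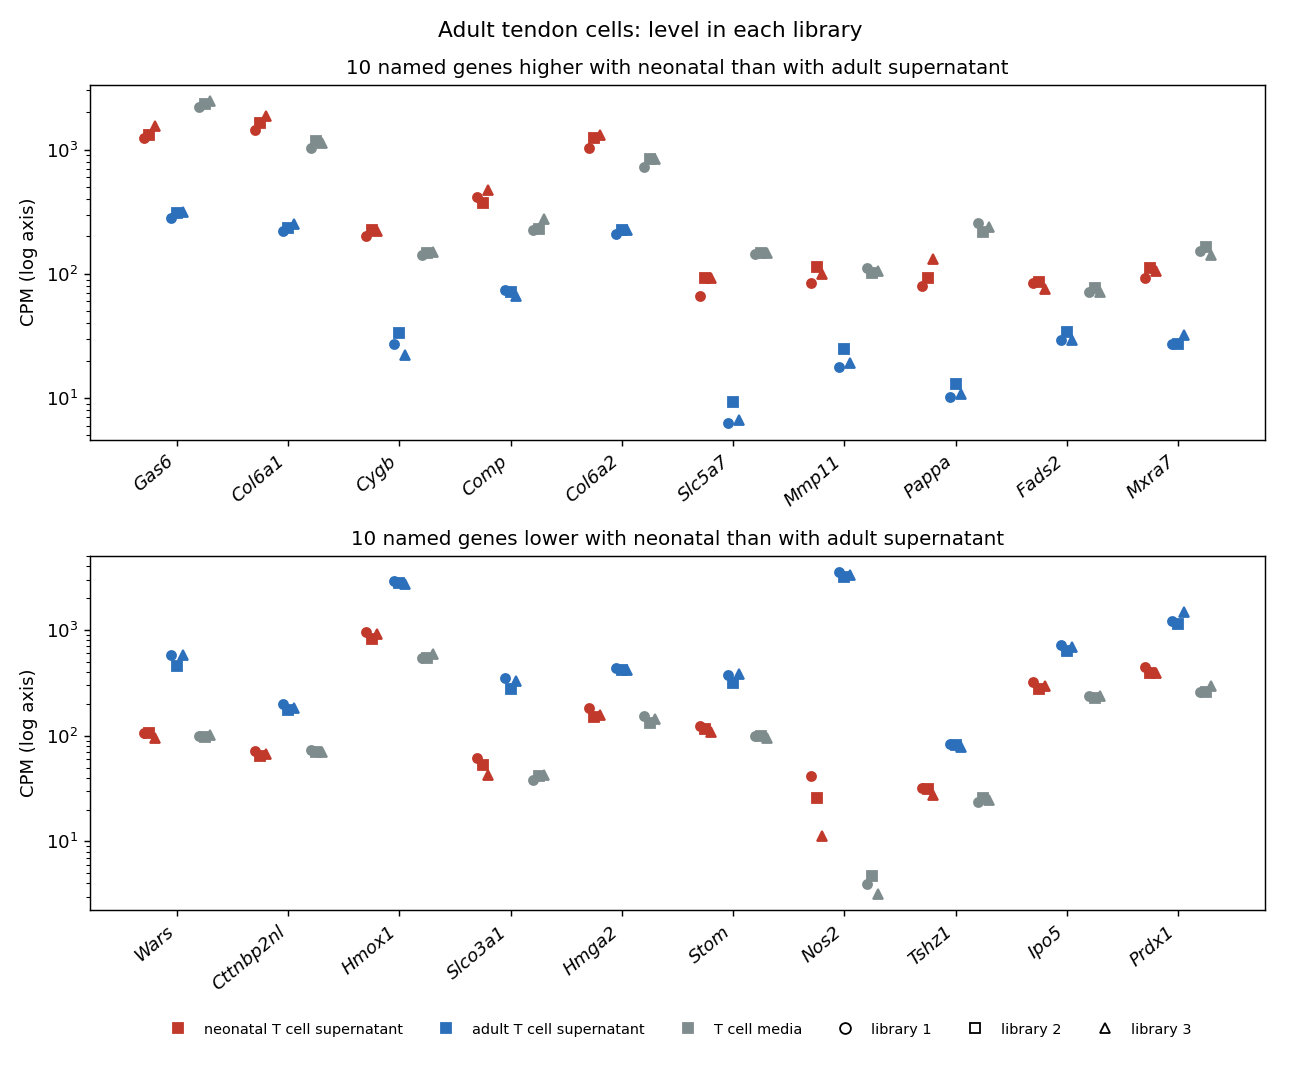
Level in CPM (log axis) of the 10 genes named by rule in each direction between the supernatants, in adult tendon cells with neonatal T cell supernatant, adult T cell supernatant and media, 1 symbol per library. Nos2 lies at 11.3 to 41.3 CPM with neonatal supernatant and at 3153 to 3558 CPM with adult supernatant, and Comp at 370.5 to 470.4 CPM and at 66.7 to 74.05 CPM.

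The response of adult tendon cells to neonatal supernatant differed from that of neonatal tendon cells in few genes. The interaction was called for 123 genes (0.855%), 52 with a larger value in adult cells (0.361%) and 71 with a smaller one (0.493%), and 1934 had an unadjusted p under 0.05. The count depended on single libraries: it was 228, 33 and 73 without adult-cell supernatant library 3, 2 or 1, 51 without adult-cell media library 3, 60 and 54 without neonatal-cell media library 1 or 2, and 48 without neonatal-cell supernatant library 1. It was 29 with no trend and 39 with only the compared groups. An uncalled gene is not shown to respond alike at the 2 ages.

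Among the called genes, Sema7a, a membrane semaphorin that acts on integrins, moved in opposite directions. In adult cells it had 18.7, 20.97 and 23.9 CPM with neonatal supernatant and 11.4, 12.5 and 10.2 CPM in media (0.90 ± 0.13). Neonatal cells had 7.22, 9.48 and 7.01 CPM with supernatant and 16.7, 17.6 and 17.6 CPM in media (-1.14 ± 0.13), and the difference of the responses was 2.04 ± 0.18 (adjusted p = 5.8e-05). Spp1, which encodes osteopontin, rose at both ages and more in adult cells, to 1440, 1701 and 1529 CPM against 299.8, 283 and 320.1 CPM in media, and in neonatal cells to 828, 1002 and 597 CPM against 354, 338 and 323 CPM (difference 1.14 ± 0.20, adjusted p = 0.015, and 0.05 without adult-cell supernatant library 2 and 0.061 with no trend). Prl2c2, or proliferin, rose by 3.09 in adult and 1.45 in neonatal cells (difference 1.64 ± 0.29, adjusted p = 0.017, and 0.059 without adult-cell supernatant library 2).

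Other genes had a smaller log2 fold change in adult than in neonatal cells. Sfrp1, the secreted Wnt antagonist, had in adult cells the values given above and in neonatal cells 442, 615 and 408 CPM with supernatant and 56.3, 50.7 and 44.9 CPM in media, a log2 fold change of 1.55 in adult and 3.25 in neonatal cells (difference -1.70 ± 0.18, adjusted p = 0.0003). Xdh, xanthine dehydrogenase, had 714, 662 and 569 CPM against 202, 221 and 180.4 CPM in adult cells and 246, 264 and 266 CPM against 39.1, 32.98 and 34.5 CPM in neonatal cells (difference -1.18 ± 0.13, adjusted p = 0.00032). Both genes rose at both ages. Igfbp4, an IGF-binding protein, fell in adult cells, to 546, 485 and 631 CPM against 1012, 1113 and 1284 CPM, and had 565, 524 and 531 CPM against 567, 564 and 531 CPM in neonatal cells (difference -1.001 ± 0.12, adjusted p = 0.0013). Cdkn1a likewise fell in adult cells (-0.60) and had -0.04 in neonatal cells (difference -0.56 ± 0.08). Dak was at or near the lowest value in adult cells with neonatal supernatant (0.127, 0.127 and 0.226 CPM) and had 4.41, 4.07 and 5.10 CPM in media, 5.69, 5.07 and 11.7 CPM in neonatal cells with supernatant and 8.79, 2.97 and 2.25 CPM in neonatal cells in media, so that its fold change has no fixed size.

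**Figure D5:**
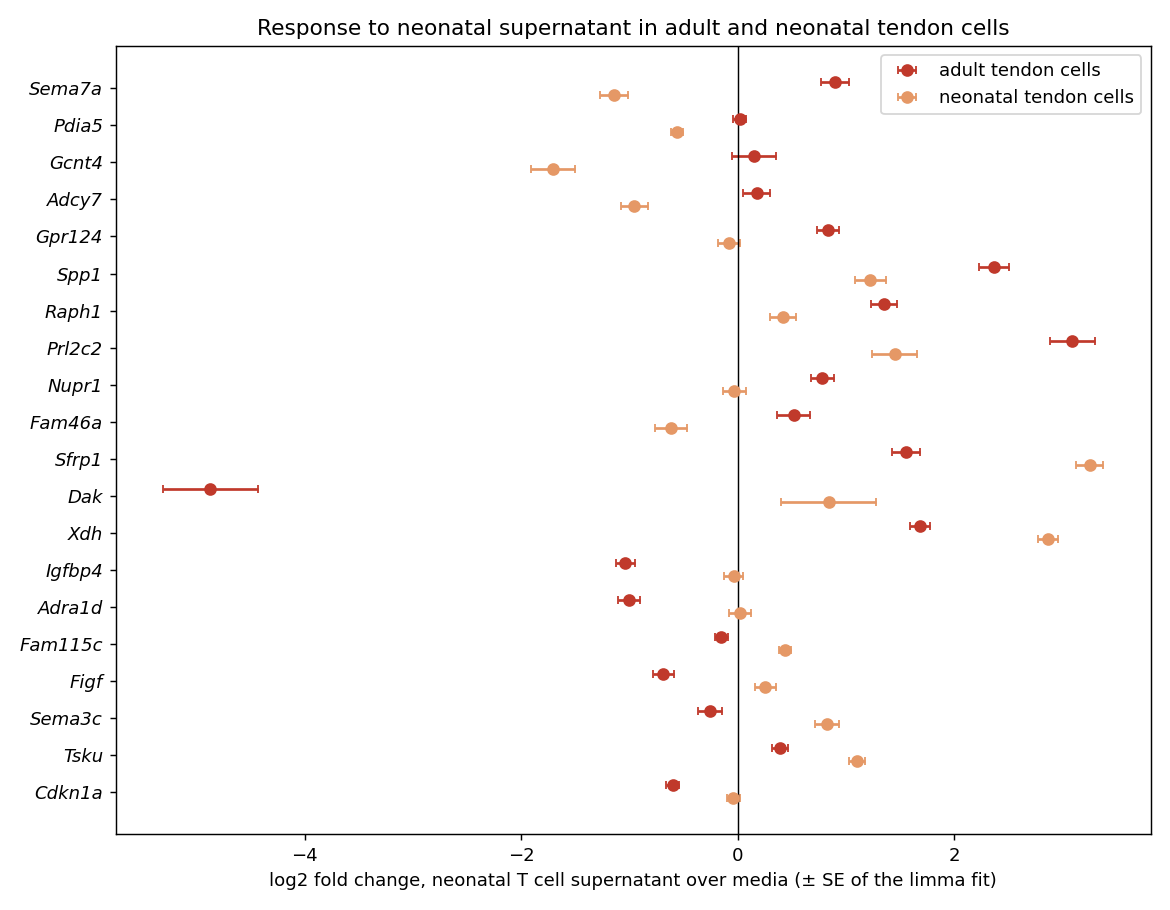
Log2 fold change of neonatal T cell supernatant over media, with the SE of the limma fit, in adult and in neonatal tendon cells for the genes called by the interaction test and named by rule. Sema7a lies at 0.90 in adult and -1.14 in neonatal cells, and Sfrp1 at 1.55 and 3.25.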

How the data were processed

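The file holds log2 CPM of 14391 genes in 18 libraries, as the authors deposited it. Per the submitters' processing notes, kallisto (version not given), limma 3.56.2 and build GRCm39 were used, and per the labels' protocols polyadenylated RNA went into NEBNext Ultra II libraries. No raw counts were used here, and depth was estimated from the steps of low values.

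All 18 libraries were fitted in 6 groups with limma 3.58.1 in R 4.3.3 (trend, two-sided, Benjamini-Hochberg over all genes, 12 residual and 4.59 prior degrees of freedom), and contrasts were taken for the 3 comparisons. The fit was tested on simulated data. Tables and plots used Python 3.11.15, numpy 2.4.6, pandas 2.3.3 and matplotlib 3.10.9.

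The 40 lists (846 memberships, 796 genes, 707 in the table) and the members were chosen with earlier results of these data known. Named genes are the 12 largest rises and falls of at least 5 CPM without overlap, 28 key genes, up to 5 genes of smallest p per list, and 10 per direction in the other comparisons. Postn, Cxcl9, Il17rd, Nlrc5, Irgm2, Ldha, Icam1, Itga11, Hgf, Slc7a11, Gpx3, Loxl1, Col12a1, Inhbb and Prelp are outside this rule and were named after their values were seen. Some genes that the rule picks enter only through the counts of their lists. Promoter windows come from RefSeq on GRCm38.p6, which is not the build of the file, so only their letters were used. Of the row names, 14190 matched RefSeq and 21 were spreadsheet dates.

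Fits were repeated without each library in turn, with a replicate block, with only the groups compared, with array weights, without the trend, with a 2-fold limit, and after TMM scaling or quantile normalization. Pseudocounts of 1 and 0.1 CPM were tried, as was leaving out genes under 5 CPM in 3 libraries.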

Additional observations from a re-analysis of the deposited data

Results flagged for a closer look

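The response to neonatal supernatant differed between adult and neonatal tendon cells, by limma's interaction test, in 33 genes named by rule or held in a list. Only called genes were taken, so all 33 pass by that choice, with adjusted p up to 0.043 (Ccl7). Over all genes the interaction was called in 0.855%. Values are the adult minus the neonatal log2 fold change.

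The difference was positive for Sema7a (2.04), Gcnt4 (1.86), Hgf (1.72), Prl2c2 (1.64), Itga11 (1.33), Spp1 (1.14), Fam46a (1.13), Adcy7 (1.13), Slc7a11 (0.975), Fbln1 (0.96), Raph1 (0.93), Gpr124 (0.92), Gpx3 (0.89), Nupr1 (0.81), Pdia5 (0.58) and Loxl1 (0.36). Gcnt4, a glycosyltransferase, had 4.14, 5.96 and 5.76 CPM in adult cells with neonatal supernatant and 4.68, 4.62 and 4.76 CPM in media, and fell in neonatal cells to 3.12, 4.12 and 3.30 CPM against 13.3, 10.1 and 11.04 CPM. Itga11, an integrin chain that binds collagen I, did not pass in adult cells (0.01 ± 0.20, adjusted p = 0.97) and fell in neonatal cells (-1.32 ± 0.20, adjusted p = 0.00014).

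It was negative for Sfrp1 (-1.70), Xdh (-1.18), Sema3c (-1.08), Adra1d (-1.025), Ptx3 (-1.01), Igfbp4 (-1.001), Figf (-0.94), Col12a1 (-0.88), Cemip (-0.82), Icam1 (-0.79), Inhbb (-0.75), Tsku (-0.72), Ccl7 (-0.62), Fam115c (-0.59), Prelp (-0.57) and Cdkn1a (-0.56), and for Dak (-5.71), whose value rests on libraries at the lowest value of the table. Icam1, the adhesion ligand of leukocyte integrins, did not pass in adult cells (-0.21 ± 0.11) and rose in neonatal cells (0.58 ± 0.11, adjusted p = 0.00089).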

How the results depend on the processing

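Against media, the 3929 calls became 3262 to 4113 under other scalings, pseudocounts, filters and fits, 2995 to 3719 when any 1 library was left out, and 1626 with a 2-fold limit. Of 192 called genes named by rule, 171 were called under every alternative, 16 lost the call under some setting and 14 without some library. Most were named for a large change or a small p, so this says little of the other calls. The 20 genes named between the supernatants were called under every alternative, which their choice by smallest p all but fixed. The 4110 calls there ranged from 3264 to 4517. The 123 interaction calls became 29 with no trend, 209 with array weights, 39 with only the compared groups and 33 to 228 when any 1 library was left out, and 15 of 20 named genes were called under every alternative. The direction turned in Col1a1 (0.00 after quantile normalization, where it had been called lower) and, among genes not called, in Mki67 (-0.073 without media library 3, and -0.073 to 0.223 over the left-out libraries), Cd3d (-0.03), Cd8a (-0.384), Lck (-0.108) and Esam (-0.306 after quantile normalization, -0.157 without media library 2, and -0.157 to 0.579 over the left-out libraries); the cause was not tested. Same-numbered supernatant and media libraries deviated together at -0.003, 0.154 and 0.173, so the numbers were not taken to pair the libraries. With a replicate block the calls were 3876, 4032 and 115 in the 3 comparisons, and among named genes Pecam1 and Lyz2 became called (adjusted p = 0.048 each). Depth limits genes under 1 CPM, where by the rough estimate of depth 3 reads correspond to up to 0.237 CPM.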

Other observations

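Growth factor and angiogenesis genes of adult tendon cells moved in both directions with neonatal supernatant against media, with 11 rises and 8 falls in 32 genes. The IGF-binding proteins went apart: Igfbp3 had 191, 135 and 128 CPM with neonatal supernatant and 20.9, 29.1 and 20.1 CPM in media and rose (2.69 ± 0.29, limma adjusted p = 2.8e-06), while Igfbp2 fell to 40.5, 43.5 and 59.7 CPM, against 256, 243 and 286 CPM in media (-2.47 ± 0.15, adjusted p = 7.4e-09). Neither gene overlapped between the groups. Angptl4, an inhibitor of lipoprotein lipase, had 156, 153 and 109 CPM against 23.01, 39.7 and 29.4 CPM and rose (2.20 ± 0.23, adjusted p = 2e-06), and the receptor Fgfr1 rose less (0.61 ± 0.07).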
